A study of Homo sapiens with 6 samples.

Results

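The 7 genes described here are the metallothionein genes MT2A, MT1E, MT1X, MT1F and MT1G, the zinc sensor gene MTF1 and the zinc exporter gene SLC30A1. They were chosen by gene symbol from the 15379 symbols of the deposited count table. The table held a row for 6 of them, and MT1G was not analysed here. All 6 passed the filter on low counts and were tested. The cells were HaCaT, an immortalised line of human keratinocytes, the main cells of the epidermis. In the heated group they were held at 41C for 1 hour a day over 3 days (3 libraries), and in the control group at 37C on the same schedule (3 libraries). Poly(A) RNA was sequenced. The time between the final hour of heat and RNA isolation is not stated, and neither is whether each library came from its own culture. The p-values below therefore reflect library-to-library spread, which could be purely technical.

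Metallothioneins are small, cysteine-rich proteins that hold zinc and copper, buffer the free metal in the cell and also bind toxic cadmium. When free zinc rises, the zinc-finger protein MTF1 binds metal response elements, short DNA motifs in the promoters of its targets, and switches on metallothionein genes and SLC30A1, whose product carries zinc out across the plasma membrane. Metallothionein genes are also known to respond to oxidants, glucocorticoids and several kinds of stress. In human skin they are made mostly by basal keratinocytes.

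The 4 metallothionein genes tested differ by few bases, which matters for how reads were assigned to them. Their coding sequences are printed below from GENCODE release 29 transcripts, without the stop codon, with capitals at each base that is not the base of MT2A at that position.
MT2A: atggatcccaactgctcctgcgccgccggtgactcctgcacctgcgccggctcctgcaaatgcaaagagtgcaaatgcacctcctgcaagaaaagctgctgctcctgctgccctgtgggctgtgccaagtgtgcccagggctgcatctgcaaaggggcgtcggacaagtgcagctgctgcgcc
MT1E: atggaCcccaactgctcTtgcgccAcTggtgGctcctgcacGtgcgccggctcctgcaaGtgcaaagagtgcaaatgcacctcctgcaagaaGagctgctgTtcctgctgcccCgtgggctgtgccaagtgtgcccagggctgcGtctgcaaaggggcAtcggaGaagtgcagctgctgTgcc
MT1X: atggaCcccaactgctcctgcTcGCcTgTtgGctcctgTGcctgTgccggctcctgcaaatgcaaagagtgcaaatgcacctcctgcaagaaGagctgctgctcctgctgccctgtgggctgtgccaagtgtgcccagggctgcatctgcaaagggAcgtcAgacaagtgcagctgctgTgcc
MT1F: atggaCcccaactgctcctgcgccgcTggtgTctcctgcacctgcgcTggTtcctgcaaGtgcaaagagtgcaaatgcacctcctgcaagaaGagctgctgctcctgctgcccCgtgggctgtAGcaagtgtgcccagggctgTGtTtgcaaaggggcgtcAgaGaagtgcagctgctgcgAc
Each is 183 bases long, and MT1E and MT1X each differ from MT2A at 14 positions and MT1F at 16. MT1E and MT1F were 91.8% identical, MT1X and MT1F 88.5%, and the longest run without a difference was the 63 bases shared by MT2A and MT1X. Exact matches were also counted over the whole GENCODE transcript, a different measure from the identity of the coding bases. Of all 50-base windows, 4.88% of MT2A, 5.34% of MT1E, 3.59% of MT1F and 45.1% of MT1X occurred without mismatch in a transcript of another annotated gene. At 100 bases the share was 0% for MT2A, MT1E and MT1F and 19.1% for MT1X, and its matches were all to AC026461.1, an annotated transcript on the same strand that overlaps MT1X. Neither the read length nor the treatment of reads that fit several places is stated in the labels, so the separate values of the metallothionein genes are uncertain where reads were short.

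The metallothionein genes lie side by side on chromosome 16. GENCODE 29 (GRCh38) places 16 metallothionein genes and pseudogenes between bases 56565049 and 56684196, of which 11 are annotated as protein-coding and 7 had a count row. MT2A spans 56608199 to 56609497, MT1E 56625475 to 56627112, MT1F 56657694 to 56660698 and MT1X 56682424 to 56684196, all on the plus strand and each with 3 exons in the transcript used. MTF1 spans 37809567 to 37859620 and SLC30A1 211571568 to 211578742, both on the minus strand of chromosome 1. Within the intron space of MTF1 lies a processed pseudogene, AL929472.4, on the opposite strand.

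RefSeq (GRCh38.p14) promoter sequences matched 4 of the 7 genes, MT2A, MT1X, MTF1 and SLC30A1. Those of MT2A, MT1X and SLC30A1 are shown here because the metal response element is the motif through which MTF1 is known to act on these genes. The 250 bases before the RefSeq start are given 5′ to 3′ on the gene's strand, with each match to the core of that element (TGCACNC or TGCGCNC, either strand) in capitals.
MT2A, chr16:56608334-56608583, plus strand: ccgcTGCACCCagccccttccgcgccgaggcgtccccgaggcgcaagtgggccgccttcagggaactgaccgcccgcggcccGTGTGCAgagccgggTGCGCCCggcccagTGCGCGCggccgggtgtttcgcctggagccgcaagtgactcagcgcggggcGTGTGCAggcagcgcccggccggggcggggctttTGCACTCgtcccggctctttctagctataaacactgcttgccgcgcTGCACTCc
MT1X, chr16:56682220-56682469, plus strand: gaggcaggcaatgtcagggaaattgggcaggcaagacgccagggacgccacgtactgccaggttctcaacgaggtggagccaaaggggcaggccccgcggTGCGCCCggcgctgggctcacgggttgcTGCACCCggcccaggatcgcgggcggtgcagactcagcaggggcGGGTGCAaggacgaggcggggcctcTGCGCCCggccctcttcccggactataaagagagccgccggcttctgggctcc
SLC30A1, chr1:211579162-211579411, minus strand: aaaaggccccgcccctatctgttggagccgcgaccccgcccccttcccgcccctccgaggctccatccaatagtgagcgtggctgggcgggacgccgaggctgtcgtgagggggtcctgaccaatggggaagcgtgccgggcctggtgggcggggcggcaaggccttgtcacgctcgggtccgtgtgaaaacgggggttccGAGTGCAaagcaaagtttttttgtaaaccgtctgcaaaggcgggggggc
From 250 bases before to 50 after the start, MT2A held 8 matches, MT1X 4, SLC30A1 2 and MTF1 0. Of 35116 RefSeq promoters of the same length, 29.6% held at least 1 match, 8.60% at least 2, 0.601% at least 4, and 7 promoters in all held 8 or more. The matches of MT2A began at positions -246, -168, -153, -139, -88, -54 and -8 before the start and at 30 after it, some of them on the opposite strand, and those of MT1X at -150, -122, -78 and -53. No promoter of the 4 held the core heat shock element (GAANNTTC or TTCNNGAA, either strand), which 13.5% of all promoters held, or the full palindromic glucocorticoid response element, which 1 promoter of all held. The antioxidant response element core TGACNNNGC was found once each in MT2A, MT1X and SLC30A1, against 13.3% of all promoters. RefSeq and GENCODE 29 place the starts of these genes differently. The bases printed for MT2A lie wholly inside its GENCODE span and those for MT1X partly inside. Those for SLC30A1 lie before its span. A match describes these letters in this window only, and neither a match nor its absence shows whether a factor was bound.

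Library totals ran from 20139202 to 20856144 counts at 41C and from 19659112 to 19745664 at 37C. Libraries correlated at 0.994 to 0.997 within a group and at 0.994 to 0.996 between groups on the log2 CPM scale across genes, where CPM is counts per 1e6 counts, scaled by TMM factors. All 7 keratinocyte markers had counts, with a summed level of 6795 to 7057 CPM at 41C and 5841 to 6497 CPM at 37C. Summed markers of other cells lay at 1.71 to 2.96 CPM at 41C and 1.96 to 2.68 CPM at 37C for 6 melanocyte genes, at 15.9 to 18.0 CPM at 41C and 13.9 to 16.7 CPM at 37C for 7 fibroblast genes, at 14.1 to 17.5 CPM at 41C and 14.6 to 18.5 CPM at 37C for 4 immune genes, and at 18.7 to 22.7 CPM at 41C and 20.7 to 30.2 CPM at 37C for 3 endothelial genes. The melanocyte genes MLANA, TYR and SOX10 and the fibroblast gene COL1A2 were not analysed here, so the sums leave them out. Most of the immune and endothelial sums came from CD68 and CDH5. With edgeR's quasi-likelihood test on all 12056 genes that passed the filter, 131 (1.09%) had an adjusted p under the threshold of 0.05 and 1652 (13.7%) an unadjusted p under 0.05, and the median log2 change of all genes was 0.0023.

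None of the 6 tested genes passed the threshold: MT2A, MTF1 and SLC30A1 had closely similar levels at 41C and 37C, MT1E was lower and MT1X slightly higher at 41C without passing, and MT1F had few counts. By edgeR 0 of 6 passed, where 1.09% of all tested genes did (0.821% higher and 0.265% lower at 41C, or 99 and 32 genes, against 57 and 53 genes with upper-quartile scaling). In the edgeR fit without length correction MT1E alone had an unadjusted p under 0.05, where 13.7% of all tested genes did. With the correction for gene length given below, MT2A and MT1X had such a p and MT1E did not. The share of all genes with such a p in the corrected fit was not computed. DESeq2 and limma-voom also called 0 of the 6. In the fit of all libraries, the median log2 change of the 4 metallothionein genes was -0.10. It was 0.0023 over all genes tested and -0.09 over the 53 tested genes of at most 500 bases, which include these 4. Intervals given with folds below are 95% intervals of the edgeR fit for 1 gene at a time, not adjusted for the number of genes.

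**Figure D1:**
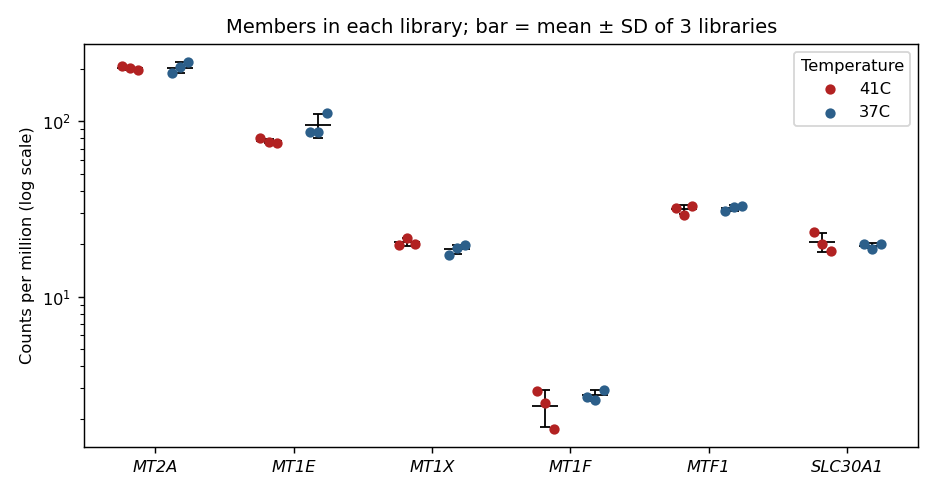
TMM-scaled CPM of the 6 tested genes in each library on a log axis, with 41C (red) to the left of 37C (blue); points are libraries and bars are the mean ± SD of 3. The points of MT1E lie lower at 41C, with 37C replicate 3 the highest at 112.3 CPM, while those of MT2A, MT1F, MTF1 and SLC30A1 overlap between temperatures.

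MT2A, the most abundant metallothionein gene in many human cells, was also the leading one here. It had 4296, 4137 and 3920 raw counts at 41C, against 3749, 4033 and 4289 at 37C. As scaled levels these were 206.1, 200.7 and 197.4 CPM at 41C, against 188.2, 204.0 and 217.2 CPM at 37C. All 3 heated libraries lay inside the range of the controls. The mean was 201.4 ± 4.41 CPM at 41C and 203.1 ± 14.5 CPM at 37C (SD, n = 3 each), a log2 change of -0.01 ± 0.05 (SE; adjusted p = 0.953 by edgeR). The fold was 0.992 with an interval of 0.919 to 1.07.

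MT1E, the next most abundant, showed the lowest fold of the 6. It had 1667, 1583 and 1497 raw counts at 41C, against 1733, 1712 and 2218 at 37C, or 80.0, 76.8 and 75.4 CPM at 41C against 87.0, 86.6 and 112.3 CPM at 37C. The heated libraries were close together and all below the controls, and 37C replicate 3 stood above the rest. Groups that did not overlap were found in 2 of the 6 genes, MT1E and MT1X, and in 20% of all tested genes (8.84% with 41C the lower). The mean was 77.4 ± 2.36 CPM at 41C and 95.3 ± 14.7 CPM at 37C (SD, n = 3 each), a log2 change of -0.30 ± 0.10 (SE; adjusted p = 0.206 by edgeR). The unadjusted p of MT1E in that model, fitted across all genes, was 0.0116. The fold was 0.812 with an interval of 0.700 to 0.943. Without 37C replicate 3 the log2 change was -0.16 ± 0.05 (adjusted p = 0.0515 by edgeR), so that library alone moved the change by over 1.5 times.

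MT1X had the only positive change among the metallothionein genes. Its raw counts were 410, 446 and 397 at 41C and 345, 372 and 388 at 37C, or 19.7, 21.6 and 19.99 CPM at 41C against 17.3, 18.8 and 19.6 CPM at 37C. The groups did not overlap, but the lowest heated library lay only just above the highest control library; 11.2% of all tested genes had groups apart with 41C the higher. The mean was 20.4 ± 1.05 CPM at 41C and 18.6 ± 1.18 CPM at 37C (SD, n = 3 each), a log2 change of 0.14 ± 0.09 (SE; adjusted p = 0.523 by edgeR). The fold was 1.10 with an interval of 0.968 to 1.25.

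MT1F had the fewest counts of the 6 tested genes. It had 60, 51 and 35 raw counts at 41C, against 53, 51 and 58 at 37C, or 2.88, 2.47 and 1.76 CPM at 41C against 2.66, 2.58 and 2.94 CPM at 37C. Counts of this size carry a counting error of about 14%, and the lowest library, 41C replicate 3, set the wide spread at 41C (coefficient of variation 23.8% at 41C and 6.88% at 37C). The log2 change was -0.20 ± 0.22 (SE; adjusted p = 0.752 by edgeR), with a fold interval of 0.634 to 1.201. Leaving out 41C replicate 3 gave -0.03 and leaving out 41C replicate 1 gave -0.36. A correction for gene length gave -0.04, and none of these values passed the threshold.

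The remaining metallothionein genes had almost no counts. In the heated libraries together MT1H was counted 1 time, MT1B 0 times and MT3, known mainly from the brain, 2 times. In the control libraries together the numbers were 0 for MT1H, 1 for MT1B and 1 for MT3. None passed the filter on low counts, and with no filter 0 of the 3 passed the test. MT1A, MT1HL1, MT1L, MT1M and MT4 were not analysed here.

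Summed over the 6 rows of MT1 and MT2A genes, metallothionein transcripts were counted 6433, 6218 and 5849 times at 41C, against 5880, 6169 and 6953 times at 37C. The sum does not depend on how reads were divided between these rows. It came to 309.1, 301.4 and 293.8 CPM at 41C, against 294.6, 311.7 and 353.8 CPM at 37C. The heated libraries were spread less and overlapped the controls, of which replicate 3 was again the highest. The mean was 301.4 ± 7.67 CPM at 41C and 320.0 ± 30.5 CPM at 37C (SD, n = 3 each), a log2 change of -0.09 ± 0.06 (SE; adjusted p = 0.562 by edgeR). The fold was 0.942 with an interval of 0.864 to 1.03.

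Per length, MT2A far exceeded its relatives and its regulators. The deposited FPKM values, which are counts per kilobase of gene length and per 1e6 counts of the library, averaged 499.1 ± 14.2 at 41C and 509.6 ± 33.1 at 37C for MT2A (SD, n = 3 each). MT1E followed at 193.2 ± 7.10 FPKM at 41C and 240.8 ± 35.9 FPKM at 37C, and MT1X at 50.3 ± 2.65 FPKM at 41C and 46.3 ± 2.64 FPKM at 37C. MT1F had 5.55 ± 1.36 FPKM at 41C and 6.45 ± 0.415 FPKM at 37C. MTF1 had 3.53 ± 0.204 FPKM at 41C and 3.64 ± 0.105 FPKM at 37C, and SLC30A1 had 3.45 ± 0.455 FPKM at 41C and 3.34 ± 0.132 FPKM at 37C. By these values the order was MT2A, MT1E, MT1X, MT1F, and then MTF1 and SLC30A1, whose levels overlapped. At every other step the libraries of neighbouring genes did not overlap. The place of MT1F depended on the gene length. With the lengths of the GENCODE transcripts, 690 bases for MT1F and 7972 for MTF1, the level of MT1F was 3.42 ± 0.836 at 41C and 3.97 ± 0.256 at 37C (SD, n = 3 each, in the unit of FPKM). That of MTF1 was then 3.93 ± 0.227 at 41C and 4.05 ± 0.117 at 37C (SD, n = 3 each), so MT1F lay below MTF1 by mean and overlapped it, while MT2A, MT1E and MT1X kept their order. MT2A ranked 107th of 12056 tested genes by mean FPKM and MT1E 228th, but by counts they ranked 934th and 2784th, since the lengths behind these FPKM values are only 401 and 398 bases.

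Relative to MT2A, the counts of MT1E were lower and those of MT1X higher at 41C without overlap between the groups, in a design too small to pass a threshold of 0.05. This comparison is within each library, so it is independent of library scaling. The lengths implied by FPKM were nearly the same, at 398 bases for MT1E, 401 for MT2A and 404 for MT1X, but the GENCODE transcripts used above had 704, 786 and 450 bases. MT1E had 0.388, 0.383 and 0.382 counts per count of MT2A at 41C, against 0.462, 0.424 and 0.517 at 37C. The heated libraries were nearly equal and all below the controls, with means of 0.384 ± 0.00335 at 41C and 0.468 ± 0.0466 at 37C (SD, n = 3 each). MT1X had 0.0954, 0.108 and 0.101 counts per count of MT2A at 41C, against 0.0920, 0.0922 and 0.0905 at 37C, here with the heated libraries all above the controls. The exact two-sided permutation p was 0.1 for each of these ratios, which is the smallest that 3 libraries against 3 allow, and 0.2 after adjustment over the 6 ratios between the 4 genes. The MT1X to MT1E ratio was 0.264 ± 0.0179 at 41C and 0.197 ± 0.0212 at 37C (SD, n = 3 each; exact permutation p = 0.1, adjusted 0.2). The ratios share genes and are not independent of each other. For single genes, 20% of all tested had groups that did not overlap, and the share over ratios of other genes was not computed.

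**Figure D2:**
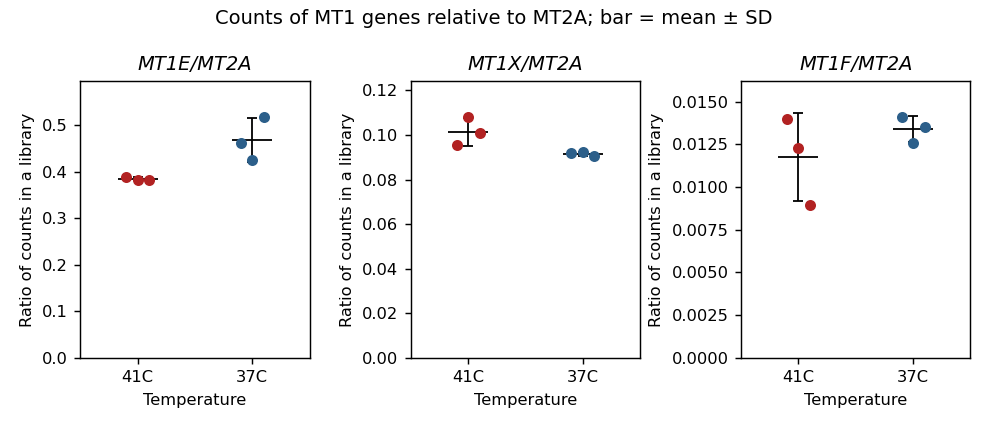
Counts of MT1E, MT1X and MT1F divided by the counts of MT2A in the same library, with 41C (red) left of 37C (blue), axes from 0, points for libraries and bars for the mean ± SD of 3. The MT1E ratio is 0.382 to 0.388 at 41C and 0.424 to 0.517 at 37C, the MT1X ratio is higher at 41C without overlap, and the MT1F ratios overlap.

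As shares of all metallothionein counts, MT2A made up 66.8, 66.5 and 67.0% at 41C and 63.8, 65.4 and 61.7% at 37C. MT1E made up 25.9, 25.5 and 25.6% at 41C and 29.5, 27.8 and 31.9% at 37C. MT1X took 6.37, 7.17 and 6.79% at 41C and 5.87, 6.03 and 5.58% at 37C. MT1F was below 1% in every library. Each library therefore held the same order of the 4 genes, with MT2A and MT1E together making up most of the total at both temperatures.

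The metallothionein genes are among the shortest tested, and across all genes the median change differed between length classes. Of the tested genes, 0.0415% had a shorter length than MT1E and 0.108% a shorter one than MT1F. The 53 tested genes of at most 500 bases had a median log2 change of -0.09, and the 6089 genes over 4000 bases one of 0.03. By library, the short genes lay at -0.058, -0.0462 and -0.0438 on the log2 scale from their mean over 6 libraries at 41C, and at 0.0148, 0.028 and 0.113 at 37C, with the highest value in 37C replicate 3. MT1E lay at -0.0962, -0.155 and -0.181 at 41C and at 0.0239, 0.0174 and 0.391 at 37C. With each library corrected for its trend on length, the log2 change of MT1E was -0.14 ± 0.08 (SE; adjusted p = 0.482 by edgeR), that of MT2A 0.15 ± 0.05 (adjusted p = 0.182) and that of MT1X 0.29 ± 0.09 (adjusted p = 0.113). The unadjusted p by edgeR in that fit was 0.0923 for MT1E, 0.0074 for MT2A and 0.00249 for MT1X. The correction moved MT1E and MT1X by over 1.5 times, with MT1E still negative and MT1X still positive. It turned the sign of MT2A and of the sum, so the direction of change of MT2A and of the sum was not fixed by these data. The correction could not move the change of MT1E relative to MT2A, which was -0.29 log2 units, because it treats genes of nearly equal length alike. The part of length in these changes was not otherwise tested.

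**Figure D3:**
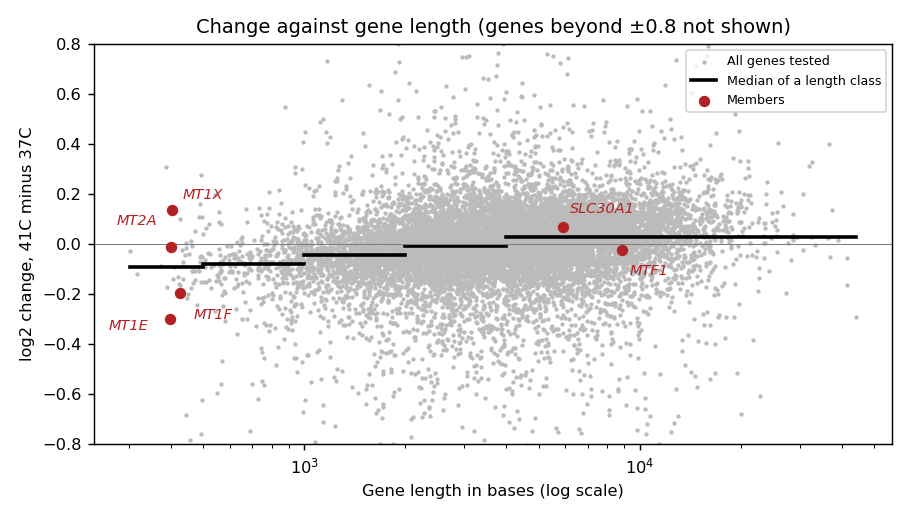
log2 change at 41C against 37C over gene length in bases on a log axis for all 12056 tested genes (grey), with the median of 5 length classes (black lines) and the 6 tested members (red); 77 genes beyond 0.8 log2 units either way are not shown. The medians run from -0.09 for the shortest genes to 0.03 for the longest, and MT2A and MT1X lie above the median of the shortest class while MT1E and MT1F lie below it.

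MTF1, the zinc-sensing activator, had 672, 605 and 654 raw counts at 41C, against 613, 643 and 649 at 37C. This was 32.2, 29.4 and 32.9 CPM at 41C, against 30.8, 32.5 and 32.9 CPM at 37C, and the groups overlapped. The mean was 31.5 ± 1.90 CPM at 41C and 32.0 ± 1.12 CPM at 37C (SD, n = 3 each), a log2 change of -0.02 ± 0.07 (SE; adjusted p = 0.926 by edgeR). The fold was 0.983 with an interval of 0.883 to 1.09. MTF1 is known to be controlled largely through its zinc binding and its entry into the nucleus, neither of which RNA counts measure.

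SLC30A1, the zinc exporter and a classic target of MTF1, had 485, 410 and 362 raw counts at 41C, against 400, 370 and 392 at 37C. The levels were 23.3, 19.9 and 18.2 CPM at 41C, against 20.1, 18.7 and 19.8 CPM at 37C. The heated libraries held both the highest and the lowest value and enclosed the controls. The mean was 20.5 ± 2.57 CPM at 41C and 19.5 ± 0.730 CPM at 37C (SD, n = 3 each), a log2 change of 0.07 ± 0.10 (SE; adjusted p = 0.820 by edgeR). The fold was 1.05 with an interval of 0.910 to 1.21.

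**Figure D4:**
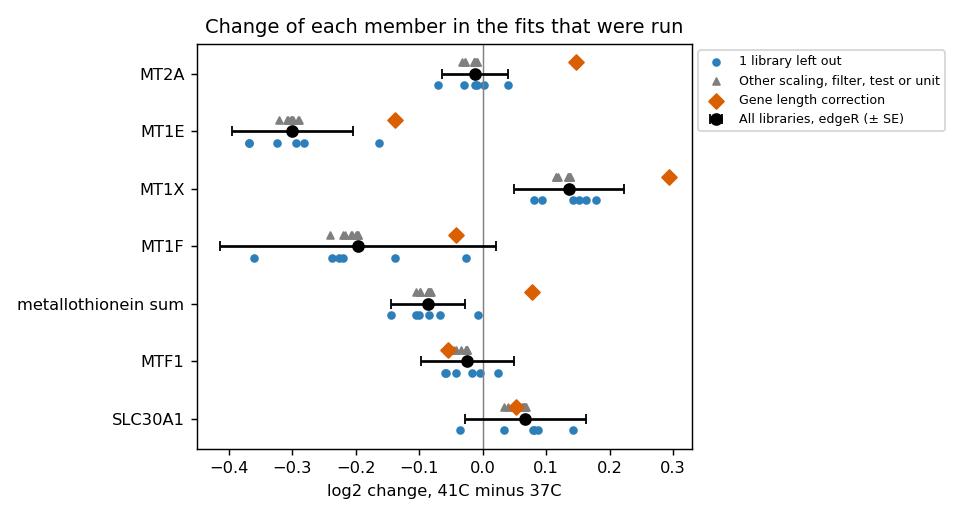
log2 change of each tested member and of the metallothionein sum at 41C against 37C in the fits that were run: all libraries with edgeR (black, ± SE), 1 library left out (blue), other scaling, filter, test or unit (grey) and a gene length correction (orange). MT1E and MT1F are negative and MT1X is positive in all of these fits, while MT2A, the sum, MTF1 and SLC30A1 change sign in at least 1 of them.

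None of the other zinc transporter genes passed the test. SLC30A proteins move zinc out of the cytosol, either out of the cell or into vesicles and the Golgi, and SLC39A proteins move it into the cytosol. Of 5 tested SLC30A genes besides SLC30A1, 0 passed and 0 had an unadjusted p under 0.05, with log2 changes from -0.08 to 0.06 and a median of -0.01. Of 12 tested SLC39A genes, 0 passed and 0 had an unadjusted p under 0.05, with log2 changes from -0.12 to 0.11 and a median of 0.02. DESeq2 and limma-voom called none of these genes either. SLC30A7, which loads zinc into the Golgi, had 27.9 ± 0.912 CPM at 41C and 29.4 ± 1.99 CPM at 37C (SD, n = 3 each; log2 change -0.07 ± 0.08, adjusted p = 0.737 by edgeR). SLC39A14, an importer of zinc and manganese, had 81.8 ± 5.57 CPM at 41C and 77.2 ± 6.002 CPM at 37C (SD, n = 3 each; log2 change 0.08 ± 0.07, adjusted p = 0.638 by edgeR). SLC39A10, which MTF1 is known to repress when zinc is ample, had 20.5 ± 0.193 CPM at 41C and 19.0 ± 3.69 CPM at 37C (SD, n = 3 each; log2 change 0.11 ± 0.12, adjusted p = 0.754 by edgeR).

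**Figure D5:**
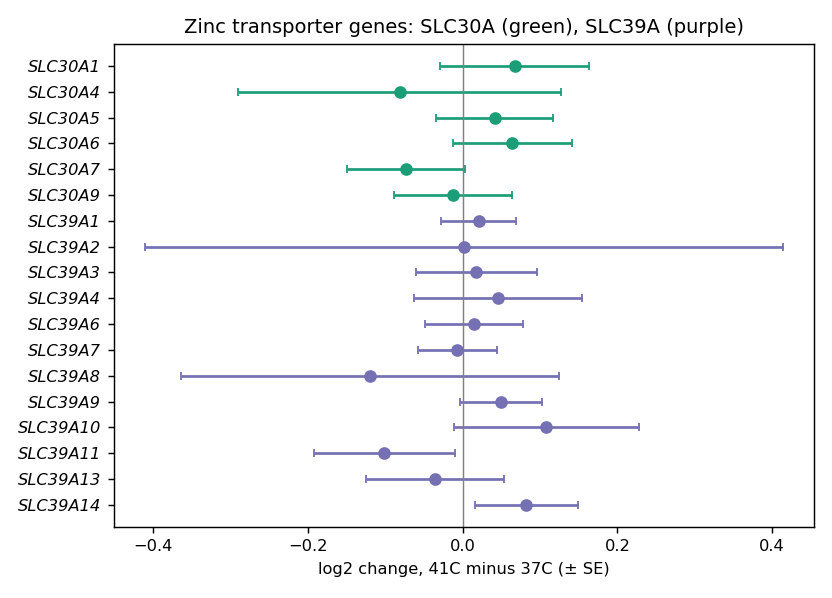
log2 change ± SE at 41C against 37C for the tested zinc transporter genes, SLC30A (green, SLC30A1 included) and SLC39A (purple). The values besides SLC30A1 run from -0.12 to 0.11, and 0 of these genes passed the threshold.

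In the lists for other inputs to metallothionein genes, 2 genes passed the test, TSC22D3 and HSPA1A. Of 12 tested copper-handling genes 0 passed and 0 had an unadjusted p under 0.05, with a median log2 change of -0.04. Among them COX11 had the smallest p (log2 change -0.16 ± 0.08, adjusted p = 0.422 by edgeR). The copper chaperone gene ATOX1 had 34.2 ± 2.50 CPM at 41C and 36.9 ± 0.657 CPM at 37C (SD, n = 3 each; log2 change -0.11 ± 0.07, adjusted p = 0.557 by edgeR). Of 17 tested genes of the oxidative stress response, 0 passed and 2 had an unadjusted p under 0.05, with a median of 0.02. Without 37C replicate 3, 2 of the 17 were called higher, as were 483 of all 12154 genes tested. HMOX1, the inducible haem oxygenase gene and a common companion of metallothioneins in metal and oxidant responses, had 2.84 ± 0.556 CPM at 41C and 3.40 ± 0.812 CPM at 37C (SD, n = 3 each; log2 change -0.26 ± 0.22, adjusted p = 0.657 by edgeR). The export pump gene ABCC1 had the smallest p of the list (log2 change 0.15 ± 0.05, adjusted p = 0.186 by edgeR).

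Of 9 tested glucocorticoid-responsive genes 1 fell and 0 rose, 4 had an unadjusted p under 0.05 and 4 had groups that did not overlap, with a median log2 change of -0.02. The gene that fell was TSC22D3, which encodes the glucocorticoid-induced leucine zipper protein. It had 260.3, 291.5 and 289.6 CPM at 41C, against 309.6, 347.6 and 338.9 CPM at 37C, with all heated libraries below the controls (log2 change -0.24 ± 0.05, adjusted p = 0.0427 by edgeR). The call was lost with limma-voom, with FPKM, when 37C replicate 2 was left out and when any 1 of the 41C libraries was left out. FKBP5 and PER1, which respond to the same hormone, had log2 changes of 0.10 ± 0.11 and -0.02 ± 0.06 (adjusted p = 0.737 and 0.936 by edgeR). Of 11 heat shock factors and inducible chaperones 1 rose, HSPA1A, with 185.3 ± 8.63 CPM at 41C and 150.3 ± 3.78 CPM at 37C (SD, n = 3 each; log2 change 0.30 ± 0.05, adjusted p = 0.00498 by edgeR), and HSPA1A has the near-identical copy HSPA1B. HSPA1B did not pass, with a log2 change of 0.17 ± 0.05 (adjusted p = 0.108 by edgeR), and its heated libraries all lay above the controls. Of these 11 genes 5 had an unadjusted p under 0.05 and 5 had groups that did not overlap, with a median log2 change of 0.12. Over all tested genes, 13.7% had such a p and 20% such groups. Leaving out 41C replicate 2 or 37C replicate 2 gave 0 of the 11 that rose, leaving out 37C replicate 1 gave 3, and leaving out 37C replicate 3 gave 4. Over all genes tested, 4 of 12154 rose without 41C replicate 2 and 10 of 12155 without 37C replicate 2. Without 37C replicate 1 it was 119 of 12148, and without 37C replicate 3 it was 483 of 12154. With no filter, or with the length correction, 2 of the 11 rose, against 184 of 15379 and 78 of 12056 genes tested. HSF1, the main heat shock factor, had a log2 change of 0.03 ± 0.05 (adjusted p = 0.858 by edgeR).

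The genes most like the metallothionein sum were sought among 11145 other tested genes whose mean log2 CPM was 1 or more, by the root-mean-square difference of log2 CPM centred over the 6 libraries. The closest were TMEM14C (0.0161), S100A6 (0.0179), COX17 (0.0211), MARVELD3 (0.0230) and ABCD4 (0.0232), all in log2 units. S100A6, which encodes a calcium- and zinc-binding protein, had 495.4, 492.5 and 463.1 CPM at 41C, against 468.3, 490.9 and 565.5 CPM at 37C. COX17, a copper chaperone of the mitochondrial respiratory chain, had 32.1, 31.9 and 30.7 CPM at 41C, against 30.7, 31.4 and 36.8 CPM at 37C. Each was highest in 37C replicate 3, as the metallothionein sum was, and none of the 5 passed the threshold between temperatures. The genes were picked for likeness to the sum over these same libraries, so neither point is a separate result.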

How the data were processed

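HaCaT libraries at 41C and 37C (3 each) were grouped by their titles. Kits named in the labels' protocols are mirVana for RNA and TruSeq Stranded mRNA for libraries. The submitters' processing notes list Trimmomatic 0.36, HISAT2 and GRCh38.p13. The counting tool, the annotation behind it and its use of strand are not stated there. The authors deposited whole-number counts per gene symbol and FPKM values. FPKM could be computed from the counts, library totals and 1 length per gene, so it is not independent, and it supplied the gene lengths.

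edgeR 4.0.16 (R 4.3.3) was used for the tests on counts (filterByExpr, TMM, robust quasi-likelihood, two-sided), with Benjamini-Hochberg adjustment over 12056 genes at 0.05. The metallothionein sum replaced its rows in a second fit. Alternatives were DESeq2 1.42.0, limma 3.58.1 (voom, and log2 of FPKM plus 1 or 0.1), other scaling factors and filters, leaving out each library, a fit with a replicate block, and a spline on log length with 4 degrees of freedom. The procedure was tested on simulated data. Libraries of the same group differed by more than sampling noise (chi-square per gene 2.41 to 10.7). The members, lists and tests were chosen with earlier results of these data known. All 7 members are named, as are at most 4 genes with the smallest p of each list and the 5 genes most like the sum; HMOX1, SLC39A10, FKBP5, PER1 and HSF1 were named outside that rule for their known roles, after their values were seen.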

Additional observations from a re-analysis of the deposited data

How the results depend on the processing

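The count of genes called, 131, became 284 with no filter, 438 with a replicate block, 24 with log2(FPKM + 1) and 41 with log2(FPKM + 0.1) (21 higher and 20 lower), and ran from 5 (without 41C replicate 2) to 805 (without 37C replicate 3) with 1 library left out (119 higher and 104 lower without 37C replicate 1); the cause was not tested. The count of members called stayed at 0 in all 16 alternatives. The gene length correction turned the log2 change of the metallothionein sum to 0.0771 and that of MT2A to 0.15, neither past the threshold. With 1 library left out the log2 change ran from -0.145 to -0.00798 for the sum, from -0.0705 to 0.0401 for MT2A (0.0022 without 41C replicate 3), from -0.0595 to 0.0241 for MTF1 and from -0.0359 to 0.14 for SLC30A1. MT1E stayed negative (-0.37 to -0.14; adjusted p = 0.0505 to 0.482) and MT1X positive (0.08 to 0.29; adjusted p = 0.113 to 0.833) in all 16 alternatives. MT1F was negative in all 16 (-0.36 to -0.03; adjusted p = 0.529 to 0.978). With 1 library left out, MT1E relative to MT2A ran from -0.36 to -0.20 on the log2 scale, and the ratio of their counts, an alternative added after the data were seen, kept its direction; scaling, filters, FPKM and the length correction cannot test that ratio. Transcript lengths in place of those implied by FPKM were also added after the data were seen. Replicate numbers are not stated to pair libraries: deviations of same-numbered libraries correlated at 0.108, -0.0122 and 0.104, and 4 of 6 libraries correlated best with their own number. With the replicate block the log2 change of MT1E was -0.29 (adjusted p = 0.164 by edgeR) and that of the sum -0.08. In that fit 5 of 11 heat shock genes rose, against 297 of all 12056 genes tested. Counting error was largest for MT1F.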
